A study of Mus musculus with 30 samples.

Results

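The 6 genes described here encode enzymes of heparan sulfate and chondroitin sulfate synthesis: Extl1, Hs3st1, Hs6st1, Papss1, Chst3 and Chst12. They were chosen by name as enzymes of this pathway, through the RefSeq accession of each probe set, and without a threshold on measured values. Other enzymes of the pathway were measured too, and the choice was made with earlier results of these data known. They make up 6 of the 374 genes that could be named on the array, and 6 of its 746 tested probe sets. Each gene had 1 probe set, so no second probe set was at hand as a check. The study asked how surface glycans of mouse T lymphocytes are remodelled on activation. RNA of spleen lymphocytes from male C57Bl/6 mice (6 to 10 weeks old) was measured on custom Affymetrix arrays for glycan genes. There were 30 arrays in 10 groups of 3. CD4 T cells were measured fresh, after culture with IL-2 (4 ng/ml), with IL-2 (4 ng/ml) and IL-4 (10 ng/ml), and with IL-2 (4 ng/ml) and IL-12 (5 ng/ml). CD8 T cells were sampled fresh and in the same 3 cytokine conditions. B cells were sampled fresh and following stimulation by IL-4 (10 ng/ml) and anti-IgM (10 ug/ml), an antibody to their antigen receptor. All cultures held a cytokine or stimulus, so culture and activation cannot be told apart. Any further T-cell stimulus is not given in the sources used here, and a culture time of 72 hours stood in the experiment files of 4 arrays.

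Heparan sulfate and chondroitin sulfate are long unbranched sugar chains that are built in the Golgi on core proteins such as syndecans and versican. Sulfotransferases decorate the chains, taking sulfate from the activated donor PAPS, and the pattern of sulfate groups decides which growth factors, chemokines and other proteins a chain can bind. On lymphocytes these chains are known for presenting chemokines and cytokines at the cell surface.

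The enzymes act at successive steps. Extl1 is a glycosyltransferase of the exostosin family that takes part in assembling the heparan sulfate backbone. Hs3st1 adds the rare 3-O-sulfate that completes the antithrombin-binding site of heparan sulfate, and Hs6st1 adds the common 6-O-sulfate. Papss1 makes PAPS and so serves both chains and other sulfated molecules. Chst3 places sulfate on the 6-O position of N-acetylgalactosamine in chondroitin, and Chst12 on the 4-O position.

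The promoters of 3 of the genes are shown: Hs3st1, which separated B cells from T cells, and Hs6st1 and Papss1, the members that fell in cultured CD8 cells. Each sequence spans 250 bases before to 50 bases after the gene's start, from RefSeq on the mouse build GRCm38.p6, at chr5:39644582-39644881 on the minus strand for Hs3st1, at chr1:36068150-36068449 on the plus strand for Hs6st1 and at chr3:131564518-131564817 on the plus strand for the first of 2 start sites of Papss1. Capitals mark matches on either strand to the GC box GGGCGG or to the CCAAT box CCAAT.
Hs3st1: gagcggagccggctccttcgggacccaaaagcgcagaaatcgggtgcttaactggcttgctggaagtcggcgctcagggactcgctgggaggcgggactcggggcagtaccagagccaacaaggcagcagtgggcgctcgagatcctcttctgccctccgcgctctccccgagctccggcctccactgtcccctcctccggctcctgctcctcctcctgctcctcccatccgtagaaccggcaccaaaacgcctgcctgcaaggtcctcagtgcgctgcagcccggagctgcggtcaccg
Hs6st1: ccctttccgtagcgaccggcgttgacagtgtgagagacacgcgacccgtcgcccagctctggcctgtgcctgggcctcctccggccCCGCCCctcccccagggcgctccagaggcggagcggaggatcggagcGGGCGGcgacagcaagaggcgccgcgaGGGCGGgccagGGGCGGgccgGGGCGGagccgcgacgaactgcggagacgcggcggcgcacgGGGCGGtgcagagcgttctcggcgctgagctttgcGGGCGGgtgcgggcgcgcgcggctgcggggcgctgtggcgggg
Papss1: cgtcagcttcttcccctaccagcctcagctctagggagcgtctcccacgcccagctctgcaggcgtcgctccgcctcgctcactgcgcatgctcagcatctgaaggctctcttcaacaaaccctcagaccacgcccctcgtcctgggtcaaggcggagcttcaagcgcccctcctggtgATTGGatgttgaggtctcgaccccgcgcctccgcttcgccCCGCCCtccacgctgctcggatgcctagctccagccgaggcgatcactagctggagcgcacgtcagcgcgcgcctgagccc
The Hs6st1 window was 78% G and C and held 7 GC boxes and no CCAAT box. The Papss1 window held 1 GC box and 1 CCAAT box, and that of Hs3st1 held neither. Over all 32851 promoters of the same length, 35.7% held a GC box and 37.4% a CCAAT box, and the median G and C content was 52.7%. No match overlapped another in the printed sequences. Of the other genes, Chst12 held 3 GC boxes and 2 CCAAT boxes, Chst3 held 1 GC box, and Extl1 held 1 CCAAT box. A search of all 6 genes on both strands for an octamer (ATTTGCAT), a STAT motif (TTCNNNNGAA), an ETS motif (CCGGAAG) and an AP-1 motif (TGANTCA) found no match in these windows.

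Before the results, the arrays were checked against their labels. Replicate arrays correlated with Pearson r from 0.841 to 0.937 on the log2 scale (30 pairs). The T-cell genes Cd2 and Il7r, 2 of 10 listed T-cell markers on the array, summed to 6779 to 17145 in the T-cell groups and to 946 to 3328 in the B-cell groups, and 4 of 9 listed B-cell markers summed to at least 20353 on fresh B arrays and at most 3191 on T-cell arrays. Neither Cd4 nor Cd8a was among the named probe sets used. On the fresh CD4 array of title letter C the signal ratio of the 3' to the 5' end was 7.62 for Actb and 4.97 for Gapdh, and on the fresh CD8 array of letter C it was 1.62 for both. The experiment files of 2 arrays, the one labelled CD8 with IL-2 and IL-4, letter C, and the one labelled CD8 with IL-2 and IL-12, letter D, carry each other's code. Results that rest on any of these arrays are given with and without them where a call changes. Over the 3 cell types the Gapdh ratio was 1.04 to 4.97 on fresh and 0.746 to 1.04 on cultured arrays. The Actb ratio was 1.03 to 7.62 on fresh and 0.876 to 1.15 on cultured arrays. The 3'/5' ratio thus went largely with culture in this design, and it entered only as a covariate in an alternative fit.

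The clearest differences of the 6 genes followed cell type for Hs3st1 and culture for Hs6st1. Signals below are the deposited linear array signals, and differences are log2 differences of log2(signal + 16) with their standard error (SE) from a limma fit of 1 mean per group to all 30 arrays. Passing means a p under 0.05 after Benjamini-Hochberg adjustment over all 746 probe sets. The labels do not state whether replicate arrays stem from separate mice or cultures, so these p-values measure only the spread between arrays, which may be technical. The limma F test over the 10 groups was passed by 5 of the 6 genes, where 35.7% of all probe sets passed, with adjusted p = 5.81e-09 for Hs3st1, 9.76e-06 for Hs6st1, 0.00140 for Chst3, 0.00185 for Extl1 and 0.00554 for Chst12. Papss1 missed the threshold (adjusted p = 0.0948). Ranked by mean log2 signal among the 746 probe sets, Papss1 (place 144) and Hs6st1 (place 164) were the brighter genes, Chst12 (place 319) and Extl1 (place 445) were intermediate, and Hs3st1 (place 521) and Chst3 (place 531) were dim over the whole set of arrays. Neighbouring groups in the order of a gene's mean overlapped in most cases, in 7 of 9 pairs for Hs3st1, 8 of 9 for Hs6st1, Extl1, Chst3 and Chst12, and 9 of 9 for Papss1.

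**Figure D1:**
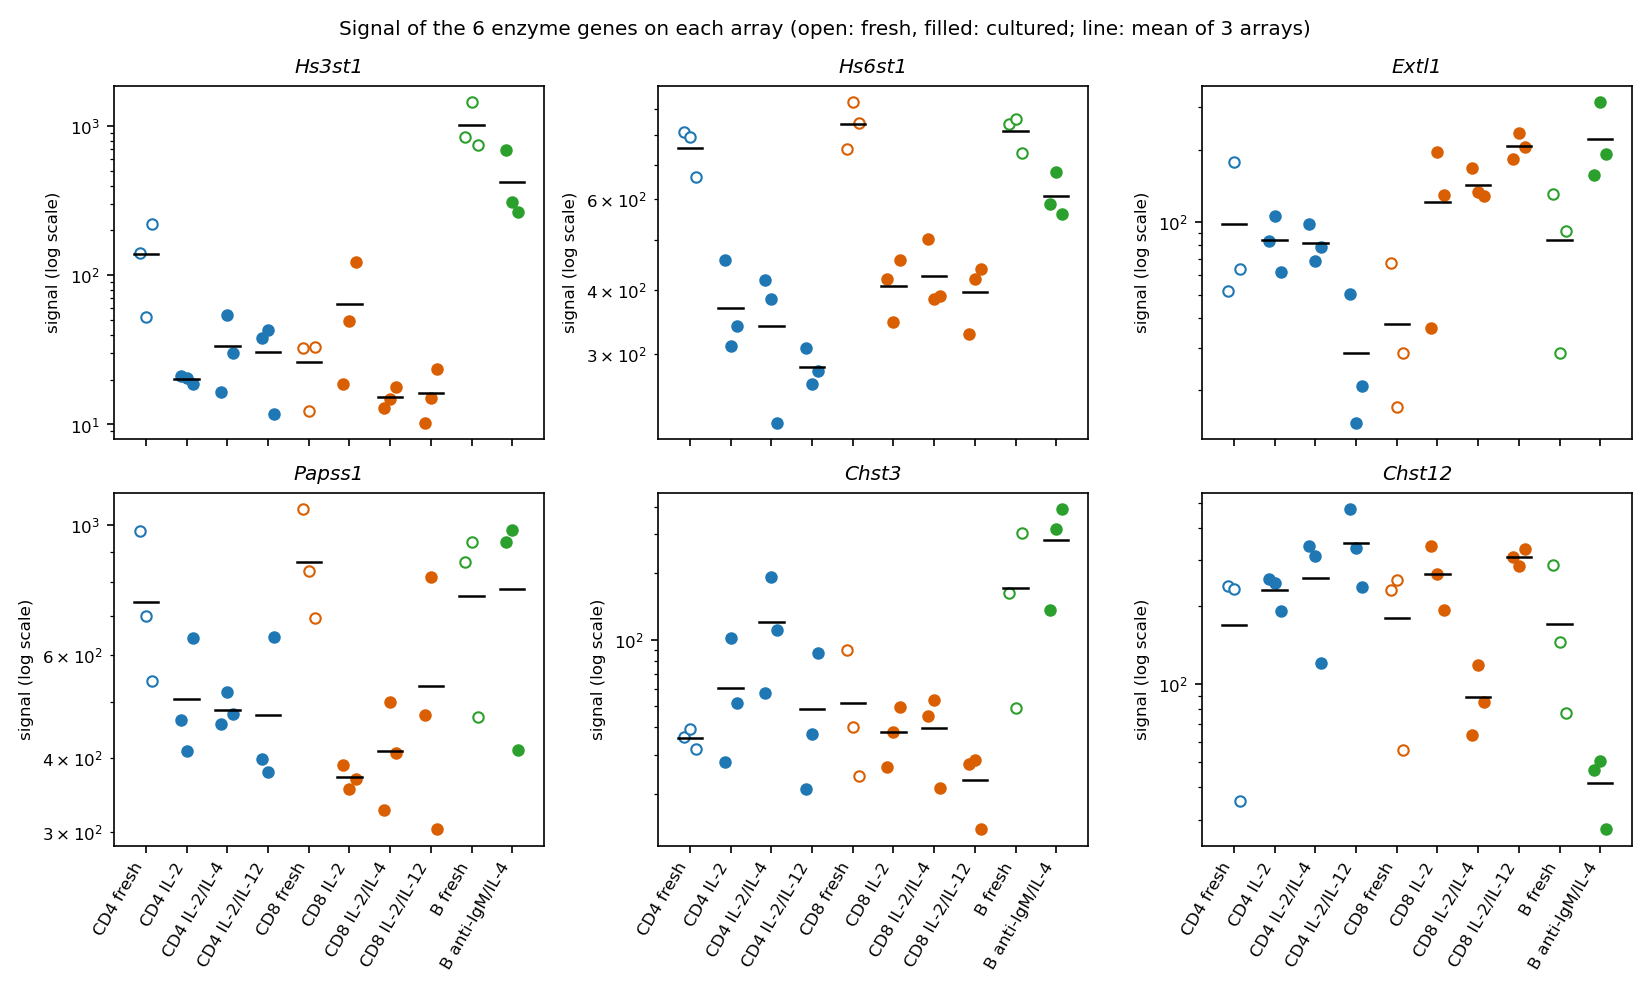
Signal on each of the 30 arrays (log axis) for the 6 genes in the 10 groups, with open points for fresh and filled points for cultured cells and a line at the mean of 3 arrays. Hs3st1 is highest on the 6 B-cell arrays (268 to 1453), and Hs6st1 is higher on fresh T-cell arrays (664 to 928) than on cultured T-cell arrays (220 to 503).

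Hs3st1, the 3-O-sulfotransferase, was highest in B cells. In fresh B cells its signal was 853 on the array of letter G, 1453 on letter E and 752 on letter K, and after culture with anti-IgM and IL-4 it was 696, 308 and 268. Fresh CD4 cells gave 141, 52.7 and 221, and fresh CD8 cells 32.7, 12.3 and 33.3. All 6 B-cell arrays lay above all 24 T-cell arrays, and the share of all probe sets was computed only for parts of this separation. It was 9.65% without overlap between fresh B and fresh T cells and 22.7% between activated B cells and T cells with IL-4. The fresh CD4 arrays lay above fresh CD8 arrays. Against fresh T cells of both subsets (6 arrays), fresh B cells (3 arrays) were higher by 3.73 ± 0.41 on the log2 scale, 13.3-fold (limma adjusted p = 2.94e-07). Activated B cells were higher than T cells cultured with IL-2 and IL-4 by 3.39 ± 0.41 (limma adjusted p = 5.47e-07), and by 2.27 to 4.11 across the 21 alternative settings. The T-cell signals in these comparisons reach down to 12.3, near the added 16, and are not shown to lie above background, so a fold is one of signal + 16 and not of RNA. Stimulus and cell type both differ in the second comparison. Across the 21 alternative settings the difference between fresh cell types kept its call, with a limma adjusted p of at most 0.000490. Arrays scanned in the same period gave fresh B minus fresh T differences of 3.31, 4.42 and 1.69.

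Among fresh cells Hs3st1 passed with Chst3, 2 of the 6 genes, where 8.18% of all probe sets passed. The median difference of the 6 genes was 0.20 and that of all probe sets 0.01. In a bulk sample, fewer cells of a type and less RNA per cell cannot be told apart. The B-cell marker genes Cd22 and Fcer2a, a Siglec and the low-affinity IgE receptor, were also measured in the fresh T-cell samples. Fresh CD4 cells had 13.6% of the Hs3st1 signal of fresh B cells, 10.1% of the Cd22 signal, 10.5% of the Fcer2a signal, 14.4% of the Cxcr5 signal and 54.3% of the Cd72 signal. Fresh CD8 cells had 2.56% of the Hs3st1 signal of fresh B cells, 7.29% of the Cd22 signal, 8.06% of the Fcer2a signal, 15.1% of the Cxcr5 signal and 54.7% of the Cd72 signal. The share for Hs3st1 was thus below each of the 4 marker shares in CD8 cells, and lay within their range in CD4 cells. The Hs3st1 difference between fresh CD8 and fresh CD4 cells was -1.75 ± 0.47 (95% interval -2.72 to -0.77, limma adjusted p = 0.0584), with groups that did not overlap, as in 13.3% of all probe sets. Without the fresh CD4 array of letter B it was -2.24 (limma adjusted p = 0.0164). Across the 19 alternative settings it ran from -2.26 to -0.63 and passed in 2 (limma adjusted p up to 0.847).

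In cultured CD4 cells Hs3st1 was dim. Its signal was 21.0, 20.5 and 18.8 with IL-2, 16.6, 54.5 and 30 with IL-2 and IL-4, and 37.8, 42.9 and 11.8 with IL-2 and IL-12. The highest of these, 54.5, lay just above the lowest fresh array, 52.7, so the groups overlapped by that pair of arrays. Over the 9 cultured arrays Hs3st1 fell by 1.69 ± 0.39 on the log2 scale against fresh CD4 cells, 3.23-fold (limma adjusted p = 0.00168). The 4 measured of 9 listed B-cell markers moved with it, from a sum of 2013 to 2786 on fresh CD4 arrays to 555 to 1075 on cultured CD4 arrays, and 3 of the 4 fell. Their part in the result was not tested. The call was lost on adjusting for each array's 3'/5' ratio (-0.89, limma adjusted p = 0.319), with the scan day as a block (-0.43, limma adjusted p = 0.770) and with the scan period as a block (-1.40, limma adjusted p = 0.0658). Within the 1 scan period that held both kinds of array, 1 cultured array was lower than 1 fresh array by a log2 difference of -2.27.

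In CD8 cells Hs3st1 was low both before and after culture on most arrays. Its signal after culture was 18.7, 49.1 and 124 with IL-2, 12.9, 14.8 and 17.9 with IL-2 and IL-4, and 10.3, 15.1 and 23.5 with IL-2 and IL-12. Cultured and fresh CD8 arrays overlapped, and the 95% interval of their difference ran from -0.80 to 0.79. The culture effect in CD8 minus that in CD4 cells was 1.69 ± 0.55, which missed the threshold (limma adjusted p = 0.0950). In B cells the 3 cultured arrays lay below the 3 fresh arrays, at 41.6% of the fresh mean, with a difference of -1.30 ± 0.47 that missed the threshold (limma adjusted p = 0.0840). In that comparison 4 of the 6 genes, and 22% of all probe sets, had groups that did not overlap. Of the B-cell markers, Cd22 was at 47.1%, Fcer2a at 52.4%, Cxcr5 at 41.0% and Cd72 at 134.7% of the fresh B-cell mean in the same cultures.

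**Figure D2:**
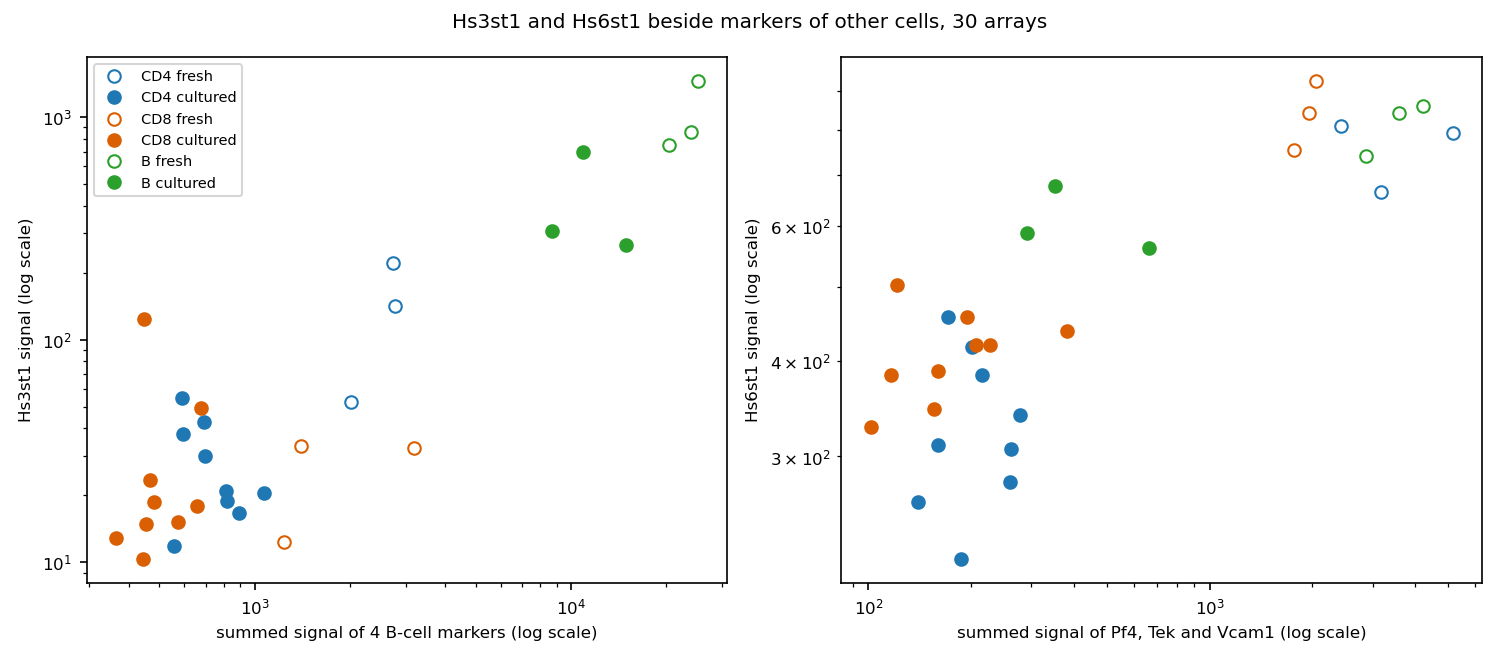
Signal of Hs3st1 against the summed signal of the B-cell markers Cd22, Fcer2a, Cxcr5 and Cd72 (left) and of Hs6st1 against the sum of Pf4, Tek and Vcam1 (right) on 30 arrays, both axes logarithmic. On the left, fresh CD4 arrays lie between B-cell and cultured CD4 arrays in marker sum (2013 to 2786) but overlap cultured T-cell arrays in Hs3st1 signal, and all 9 fresh arrays lie at the upper right on the right.

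Hs6st1, the 6-O-sulfotransferase of heparan sulfate, fell with culture in both T-cell subsets. Fresh CD4 cells gave 810, 793 and 664. Cultured CD4 cells gave 456, 311 and 340 with IL-2, 418, 383 and 220 with IL-2 and IL-4, and 307, 261 and 278 with IL-2 and IL-12. Every cultured CD4 array lay below every fresh one. Fresh CD8 cells gave 753, 928 and 844. Cultured CD8 cells gave 420, 346 and 456 with IL-2, 503, 384 and 388 with IL-2 and IL-4, and 328, 420 and 438 with IL-2 and IL-12. Again no cultured array reached a fresh one. The gene fell by 1.18 ± 0.19 in CD4 cells, 2.27-fold (limma adjusted p = 4.17e-05), and by 1.02 ± 0.19 in CD8 cells, 2.03-fold (limma adjusted p = 0.000238). It also passed in each of the 6 cytokine conditions against fresh cells of the same subset, falling by 1.02, 1.16 and 1.37 in CD4 cells and by 1.02, 0.97 and 1.07 in CD8 cells (limma adjusted p between 0.000120 and 0.00413). Of all probe sets 17.2%, 21.2% and 15.7% passed in these CD4 conditions and 16.1%, 18.1% and 14.6% in the CD8 conditions, which share the fresh arrays of their subset. Median centring ended 4 of the 6 calls, those with IL-2 alone (limma adjusted p = 0.0617 in CD4 and 0.0566 in CD8 cells) and with IL-2 and IL-4 (limma adjusted p = 0.0722 and 0.0750). The scan day as a block ended the 3 CD4 calls (limma adjusted p between 0.0623 and 0.346). In the order IL-2, IL-2/IL-4 and IL-2/IL-12, alternative settings kept the CD4 calls in 15 of 19, 17 of 20 and 18 of 19. They kept the CD8 calls in 17 of 19, 18 of 20 and 18 of 19, with the last at a limma adjusted p of at most 0.0527. The difference between the subsets' culture effects was 0.16 ± 0.27 (95% interval -0.40 to 0.73).

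In CD8 cells the fall of Hs6st1 kept its call under all 25 alternative settings (log2 difference -1.11 to -0.82, limma adjusted p at most 0.0104). In CD4 cells 24 of 25 settings kept it, and the scan day as a block did not (-0.98, limma adjusted p = 0.0719). Within scan periods the CD8 difference was -0.57 and -1.22 and the CD4 difference was -0.93. Signals of the 3 measured of 6 listed genes of platelets, endothelium and stroma (Pf4, Tek and Vcam1) summed to 1769 to 5160 on fresh T-cell arrays and to 101 to 383 on cultured ones, of which Vcam1, an adhesion molecule of stromal and endothelial cells, was the largest part. The 4 measured of 9 listed myeloid markers summed to 771 to 2777 on fresh T-cell arrays and to 148 to 630 on cultured ones. Itgax was the largest part of the fresh sums, with means of 1651 in CD4 and 676 in CD8 cells. Of the 4 markers, 2 passed as lower in cultured CD4 cells and 1 in cultured CD8 cells. The part of these cells in the Hs6st1 result was not tested.

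Hs6st1 in B cells was 842, 862 and 740 fresh and 588, 678 and 561 after culture. These groups did not overlap either, as in 22% of all probe sets, but the difference of -0.41 ± 0.24 missed the threshold (limma adjusted p = 0.350). Fresh B and fresh T cells differed by 0.03 ± 0.21 (95% interval -0.39 to 0.45). Activated B cells were higher than T cells with IL-2 and IL-4 by 0.68 ± 0.21 (limma adjusted p = 0.0150), which was 0.33 after median centring of the arrays (limma adjusted p = 0.382).

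**Figure D3:**
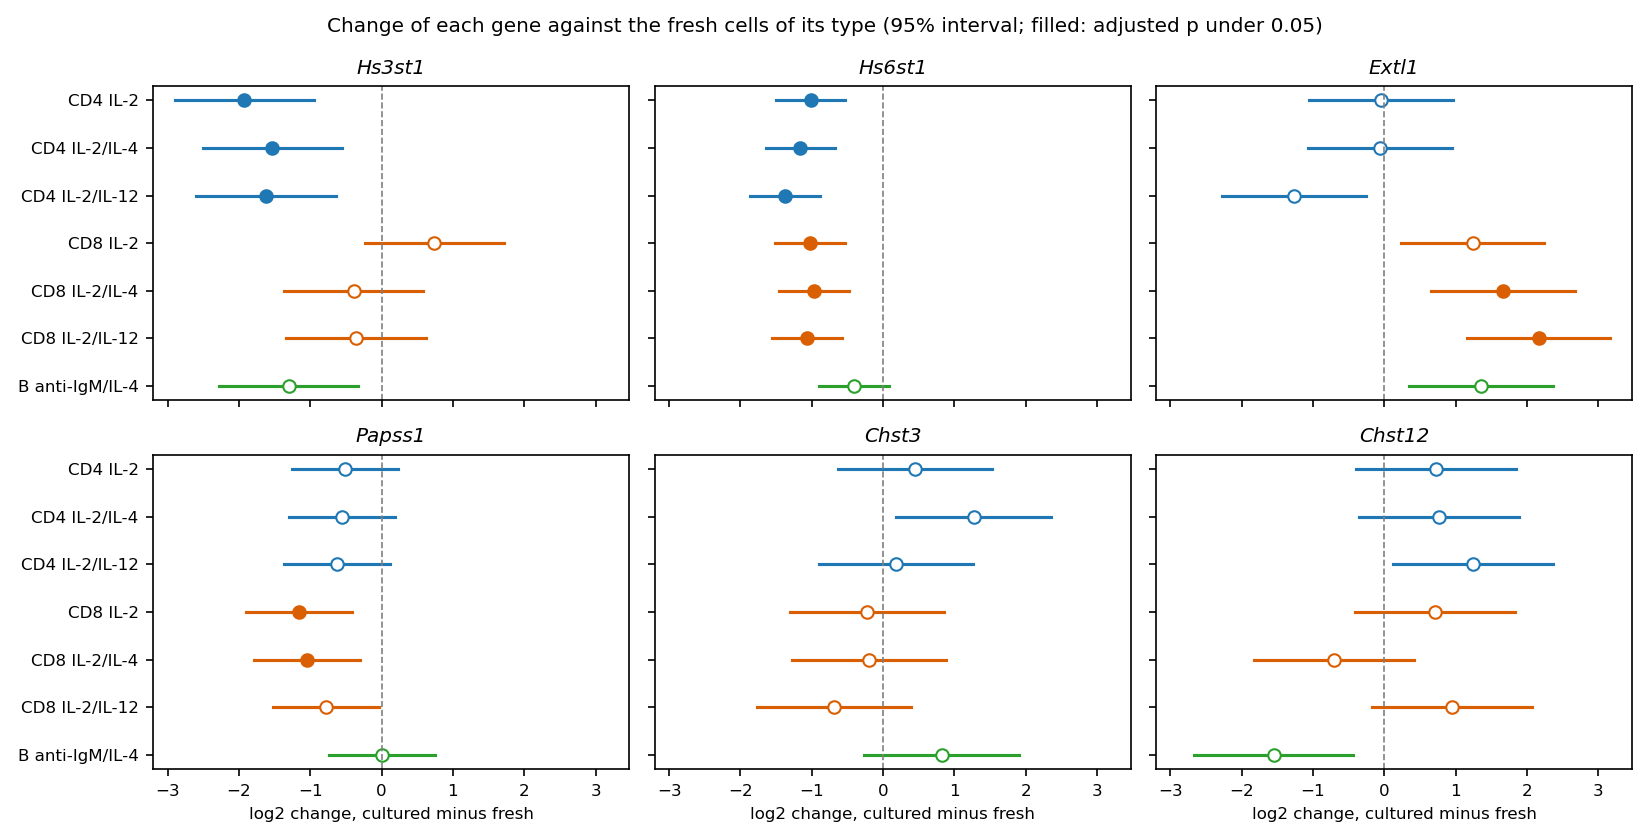
Log2 change of each gene in each cultured group against the fresh cells of its type, with 95% intervals, filled where the limma adjusted p was under 0.05. Hs6st1 lies left of 0 in all 6 T-cell conditions (-1.37 to -0.97), and Extl1 lies right of 0 in the 3 CD8 conditions (1.24 to 2.16).

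Across cultured against fresh CD4 cells, Hs3st1 and Hs6st1 were the 2 of 6 genes that passed, both lower, where 21.6% of all probe sets passed and 11.4% passed as lower. Hs6st1 was the only one of the 6 whose groups did not overlap, as in 17.2% of all probe sets. In CD8 cells 3 of 6 passed, Hs6st1 and Papss1 lower and Extl1 higher, where 20.8% of all probe sets passed, 10.3% as higher and 10.5% as lower, and Hs6st1 alone did not overlap (18.8% of all). The median difference was -0.51 for the 6 genes and -0.13 for all probe sets in CD4 cells, and -0.19 and -0.07 in CD8 cells. Of the probe sets called in CD4 cells 47.2% were higher, and 68.4% after median centring. In CD8 cells these shares were 49.7% and 60%. Median centring moved the median of all probe sets to 0.18 in CD4 and 0.13 in CD8 cells. Relative to the median of all probe sets, a measure that median centring leaves unchanged, Hs6st1 was lower by a log2 difference of -1.05 in CD4 and -0.95 in CD8 cells, Hs3st1 by -1.56 in CD4 cells, and Papss1 by -0.93 in CD8 cells, and Extl1 was higher by 1.76 in CD8 cells.

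Papss1, the maker of the sulfate donor, was bright in fresh cells and fell in cultured CD8 cells. Fresh CD8 cells gave 1066, 835 and 693. Cultured CD8 cells gave 389, 355 and 369 with IL-2, 327, 498 and 409 with IL-2 and IL-4, and 475, 817 and 303 with IL-2 and IL-12. The array of letter H with IL-2 and IL-12, at 817, was the only cultured CD8 array above the lowest fresh array. Over the 9 cultured arrays Papss1 fell by 0.99 ± 0.29, 1.99-fold (limma adjusted p = 0.0149). It passed with IL-2 alone (-1.16, limma adjusted p = 0.0262) and with IL-2 and IL-4 (-1.04, limma adjusted p = 0.0459) and not with IL-2 and IL-12 (-0.78, limma adjusted p = 0.171). Both single-condition calls were lost with median centring (limma adjusted p = 0.142 and 0.206), and each was lost in 5 of 6 fits that left out 1 array, with adjusted p up to 0.111 and 0.177 in limma. The exception in both was the fit that left out fresh CD8 letter C. The call over all cultured CD8 arrays was lost with median centring (-0.80, limma adjusted p = 0.107) and on leaving out the fresh array of letter A (-0.83, limma adjusted p = 0.106) or letter B (-1.01, limma adjusted p = 0.0503). Without the 2 arrays whose experiment files carry each other's code, Papss1 with IL-2 and IL-4 had an adjusted p of 0.111 in limma. Within scan periods the CD8 difference was -1.66 and -0.83.

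In CD4 cells Papss1 gave 978, 699 and 542 fresh. With IL-2 it was 465, 412 and 641, with IL-2 and IL-4 458, 518 and 477, and with IL-2 and IL-12 399, 380 and 644. Fresh and cultured arrays overlapped, and the difference of -0.57 ± 0.29 missed the threshold (95% interval -1.17 to 0.04, limma adjusted p = 0.182). The CD8 and CD4 culture effects differed by -0.43 ± 0.42 (95% interval -1.29 to 0.43). B cells gave 864, 934 and 471 fresh and 938, 981 and 413 cultured, a difference of 0.00 ± 0.36. In both B-cell groups the array of letter K was the lowest. Papss2, the other PAPS synthase, had mean signals between 38.2 and 155 over the 10 groups and passed in none of the comparisons.

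Extl1, the exostosin-like glycosyltransferase, rose in cultured CD8 cells. Fresh CD8 cells gave 67.5, 17.1 and 28.5. Cultured CD8 cells gave 36.2, 196 and 130 with IL-2, 167, 133 and 128 with IL-2 and IL-4, and 182, 235 and 206 with IL-2 and IL-12. All arrays with IL-4 or IL-12 lay above the fresh ones, where 31.6% (IL-4) and 30.4% (IL-12) of all probe sets did not overlap. The array of letter D with IL-2 alone, at 36.2, lay among the fresh ones. The rise over the 9 cultured arrays was 1.69 ± 0.40, 3.22-fold (limma adjusted p = 0.00221). It kept its call under all 25 alternative settings (1.09 to 2.11, limma adjusted p at most 0.0363). The fresh signals reach down to 17.1 and are not shown to lie above background. The fold is thus one of signal + 16 and not of RNA. Extl1 passed with IL-2 and IL-4 (1.67, limma adjusted p = 0.0169) and with IL-2 and IL-12 (2.16, limma adjusted p = 0.00205), and with IL-2 alone it was 1.24 (limma adjusted p = 0.0909). The call with IL-4 was lost without the fresh CD8 array of letter B (1.37) or letter C (1.59, limma adjusted p = 0.0530) or the IL-4 array of letter A (1.56, limma adjusted p = 0.0630). Within scan periods the differences were 1.13 and 1.83.

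The culture effect on Extl1 was tested for a difference between the subsets, a call that 31 of 38 alternative settings kept. Extl1 was 51.6, 178 and 63.6 in fresh CD4 cells. With IL-2 it was 83.5, 106 and 62.0, with IL-2 and IL-4 98.5, 69.0 and 78.5, and with IL-2 and IL-12 50.4, 14.7 and 20.8. The arrays with IL-12 lay below the other CD4 arrays, a separation for which no share of all probe sets was computed. Against IL-2 alone they differed by -1.22 ± 0.49 (unadjusted p = 0.0196 and adjusted p = 0.972 in limma). Between these 2 groups 11.1% of all probe sets did not overlap. The culture effect in CD8 minus that in CD4 cells was 2.15 ± 0.56 (95% interval 0.99 to 3.31, limma adjusted p = 0.0299), where 4.02% of all probe sets passed and Extl1 was the 1 of 6. The call was lost with the scan day (1.95, limma adjusted p = 0.483) or the scan period (1.52, limma adjusted p = 0.442) as a block and without both fresh T-cell arrays of letter C (2.24, limma adjusted p = 0.0875). Cultured CD8 cells were higher than cultured CD4 cells by 1.12 ± 0.28 (limma adjusted p = 0.00904), again the 1 of 6 genes that passed, against 9.65% of all probe sets. Fresh CD8 minus fresh CD4 cells was -1.03 ± 0.49 (unadjusted p = 0.0453 and adjusted p = 0.417 in limma). The culture effect difference of 2.15 is the cultured difference minus this fresh difference. With IL-2 and IL-12 the CD8 cells were higher by 2.40 ± 0.49, 5.28-fold (limma adjusted p = 0.00407, with 2.82% of all probe sets called). The CD4 signals in that condition reach down to 14.7, so this fold too is one of signal + 16 and not of RNA. With IL-2 and IL-4 the CD8 cells were higher by 0.70 ± 0.49 (limma adjusted p = 0.660, 3.89% called). With IL-2 alone they were higher by 0.26 ± 0.49 (limma adjusted p = 0.915, 3.22% called). The effect of adding IL-12 in CD8 minus that in CD4 cells was 2.15 ± 0.69 (unadjusted p = 0.00472 and adjusted p = 0.704 in limma), and 0 of 746 probe sets passed in that comparison, with 30 at an unadjusted p under 0.05. The scan day and the scan period as a block ended the CD8 against CD4 call with IL-2 and IL-12 (limma adjusted p = 0.208 and 0.201) and that over all cultured cells, where the difference was 0.84 and 0.86 (limma adjusted p = 0.342 and 0.199). Within scan periods the difference over cultured cells was 0.68 and 0.87.

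In B cells Extl1 was 131, 28.6 and 92.2 fresh and 157, 315 and 191 cultured. The groups did not overlap, as in 22% of all probe sets, and the difference of 1.35 ± 0.49 missed the threshold (limma adjusted p = 0.0815). The related Extl2 and Extl3, which also act in chain assembly, and B3galt6, which builds the linker to the core protein, completed the 4 measured of 24 listed chain synthesis genes, and none of these 3 passed in any comparison.

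Chst3, the chondroitin 6-O-sulfotransferase, was higher in B cells than in most T cells. Its signal was 163, 49.1 and 304 in fresh B cells and 136, 318 and 391 in activated B cells. Fresh CD4 cells gave 36.3, 39.2 and 31.9, and fresh CD8 cells 90.1, 40.2 and 24.2. The fresh B array of letter E, at 49.1, lay below the highest fresh CD8 array. The difference between fresh B and fresh T cells was 1.45 ± 0.45 (limma adjusted p = 0.0478), a call that was lost in 16 of 21 alternative settings, among them leaving out the 2 arrays with exchanged codes (limma adjusted p = 0.0577), leaving out the fresh B array of letter K (0.93, limma adjusted p = 0.360) and the scan period as a block (1.37, limma adjusted p = 0.0964). Against T cells with IL-2 and IL-4, activated B cells were higher by 1.74 ± 0.45, 3.34-fold (limma adjusted p = 0.00521). Without the activated B array of letter K the value was 1.45 (limma adjusted p = 0.0512).

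Chst3 in cultured CD4 cells was widely spread. With IL-2 it was 27.9, 102 and 51.8, with IL-2 and IL-4 57.4, 193 and 111, and with IL-2 and IL-12 21.0, 37.5 and 86.8. The arrays with IL-4 lay above all fresh CD4 arrays, as in the 34.5% of probe sets that did not overlap there, with a difference of 1.27 ± 0.52 that missed the threshold (limma adjusted p = 0.0913) and passed after median centring (1.70, limma adjusted p = 0.0226). Across the 19 alternative settings this difference ran from 0.82 to 1.70 and passed in 3 (limma adjusted p up to 0.631). Cultured CD8 cells stayed between 13.8 and 53.4, with a difference from fresh CD8 cells of -0.37 ± 0.43 (95% interval -1.25 to 0.51). In B cells the culture difference was 0.82 ± 0.52 (95% interval -0.26 to 1.90).

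Chst12, a chondroitin 4-O-sulfotransferase, was lowest in activated B cells. Fresh B cells gave 287, 145 and 77.3, and activated B cells 46.6, 50.3 and 27.5. Every cultured B array lay below every fresh one, with a difference of -1.55 ± 0.54, 2.93-fold, that missed the threshold (limma adjusted p = 0.0703). The activated B-cell signals reach down to 27.5 and are not shown to lie above background. This fold too is one of signal + 16 and not of RNA. Leaving out both fresh T-cell arrays of letter C, which take part only in the shared estimate of the spread, gave the same difference with an adjusted p of 0.00947 in limma. Across the 20 alternative settings the B-cell difference passed in 7 (limma adjusted p up to 0.325). Arrays scanned in the same period gave -2.28, -1.28 and -1.10. In T cells Chst12 was 238, 232 and 35.4 in fresh CD4 cells and 229, 252 and 55.9 in fresh CD8 cells, the low value in each being the array of letter C. Cultured CD4 cells gave 253, 246 and 191 with IL-2, 340, 311 and 120 with IL-2 and IL-4, and 473, 334 and 237 with IL-2 and IL-12. The culture effect in B cells minus that in T cells was -2.17 ± 0.63 (95% interval -3.46 to -0.87, limma adjusted p = 0.0232), where 11.8% of all probe sets passed and Chst12 was the 1 of 6. Adjusted for the 3'/5' ratio it was -1.50 (limma adjusted p = 0.0524), and without the fresh B array of letter G it was -1.73 (limma adjusted p = 0.109).

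In cultured CD8 cells the Chst12 values with IL-4 stood below those of the other conditions. The signal was 340, 265 and 193 with IL-2, 63.7, 118 and 85.2 with IL-2 and IL-4, and 310, 285 and 331 with IL-2 and IL-12. The 3 arrays with IL-4 lay below the other 6 cultured CD8 arrays, a separation for which no share of all probe sets was computed. Adding IL-4 to IL-2 gave -1.42 ± 0.54 (unadjusted p = 0.0149 and adjusted p = 0.995 in limma). In that comparison 9.52% of all probe sets had groups that did not overlap. Of all 746 probe sets 0 passed in limma, with 28 at an unadjusted p under 0.05, and 2 of the 6 genes, Chst12 and Hs3st1, were among these. The CD4 difference on adding IL-4 was 0.04 ± 0.54, and the CD8 minus CD4 difference was -1.46 ± 0.77 (limma adjusted p = 0.988), where 0.402% of all probe sets passed. Against fresh CD8 cells the IL-4 condition was at -0.71 ± 0.54 (limma adjusted p = 0.469), and without both fresh T-cell arrays of letter C at -1.32 (limma adjusted p = 0.0337). Across the 20 alternative settings this difference ran from -1.32 to -0.37 and passed in 2 (limma adjusted p up to 0.805). Activated B cells were lower than T cells with IL-2 and IL-4 by a log2 difference of -1.51 ± 0.47 (limma adjusted p = 0.0190), and without the activated B array of letter K by -1.32 (limma adjusted p = 0.101).

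In none of the 4 comparisons that added IL-4 or IL-12 to IL-2 did any of the 6 genes pass in limma, and the number at an unadjusted p under 0.05 was 0 for IL-4 and 1 for IL-12 in CD4 cells, and 2 for IL-4 and 1 for IL-12 in CD8 cells. All probe sets passed in 0.804%, 0.134%, 0% and 0.268% of cases in the same order. Of all 746 probe sets 66, 28, 28 and 43 were at an unadjusted p under 0.05 in limma. In cultured against fresh B cells 0 of 6 passed in limma, where 9.79% of all probe sets passed. At an unadjusted p under 0.05 were 3 of the 6 and 161 of all 746 probe sets. Between fresh CD8 and fresh CD4 cells 0 of 6 passed, where 1.61% of all probe sets passed. There 2 of the 6 and 88 of all 746 probe sets were at an unadjusted p under 0.05.

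More of the 6 genes passed between activated B cells and T cells cultured with IL-2 and IL-4 than in the other comparisons between groups. There 4 of the 6 passed, Hs3st1, Hs6st1 and Chst3 higher and Chst12 lower in B cells, where 26.4% of all probe sets passed. With the scan day as a block Hs3st1 alone passed (2.27, limma adjusted p = 0.0464), as did 60 probe sets in place of 197, and the scan period as a block ended the calls of Hs6st1 (limma adjusted p = 0.110) and Chst12 (limma adjusted p = 0.0970). The median difference was 0.79 for the 6 genes and 0.20 for all probe sets. Median centring moved the median of all probe sets to -0.15, and the share of called probe sets that were higher from 52.3% to 30.2%. Relative to the median of all probe sets, Hs3st1 was at 3.19, Chst3 at 1.54, Hs6st1 at 0.48 and Chst12 at -1.71. Of 24 other measured genes of the pathway lists, 8 were higher and none lower in activated B cells. Values under median centring or the scan blocks are given here only for the 6 genes, not for these 24. Sdc4, which encodes the core protein syndecan-4, differed the most (2.62 ± 0.55, limma adjusted p = 0.000669). Its mean signal was 82.9 and 108 in these CD4 and CD8 cells and 696 ± 510 (SD, n = 3) in activated B cells. Fresh B cells were at 728 ± 436, and fresh CD4 and CD8 cells at 257 ± 272 and 260 ± 37.9 (SD, n = 3 each). Sdc4 did not pass between fresh B and fresh T cells. Chst7, another chondroitin 6-O-sulfotransferase, was higher by 1.79 ± 0.41 (limma adjusted p = 0.00174), and Chst5, a sulfotransferase of N-acetylglucosamine, by 1.69 ± 0.58 (limma adjusted p = 0.0328).

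The other 5 of the 8 genes were lysosomal enzymes that take these chains apart, 5 of 9 measured on the degradation list. Naglu acts on heparan sulfate, Idua and Gusb on the uronic acids of the chains, Galns on the 6-O-sulfate of chondroitin and keratan sulfate, and Hexa on terminal hexosamines. Their differences were 1.71 ± 0.49 for Naglu, 1.47 ± 0.26 for Hexa, 1.29 ± 0.21 for Galns, 1.01 ± 0.30 for Gusb and 0.995 ± 0.20 for Idua (limma adjusted p between 3.15e-05 and 0.0144). Among fresh cells Naglu (1.58 ± 0.49, limma adjusted p = 0.0467) and Hexa (0.88 ± 0.26, limma adjusted p = 0.0342) were also higher in B cells, the 2 of 24 that passed, a share near the 8.18% of all probe sets. Of the same 24 genes none passed in limma in cultured against fresh CD4 cells (21.6% of all probe sets), with 1 at an unadjusted p under 0.05, and none in cultured B cells (9.79% of all), with 6 at an unadjusted p under 0.05. Of all 746 probe sets 247 in CD4 cells and 161 in B cells were at an unadjusted p under 0.05. In cultured CD8 cells (20.8% of all) 1 of 24 passed, Galns, which fell (-0.61 ± 0.19, limma adjusted p = 0.0234). Apart from Hs3st1 and Hs6st1 the heparan sulfate modification list held Ndst2, Hs6st2, Hs6st3 and Hs3st3b1, none of which passed in any comparison.

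**Figure D4:**
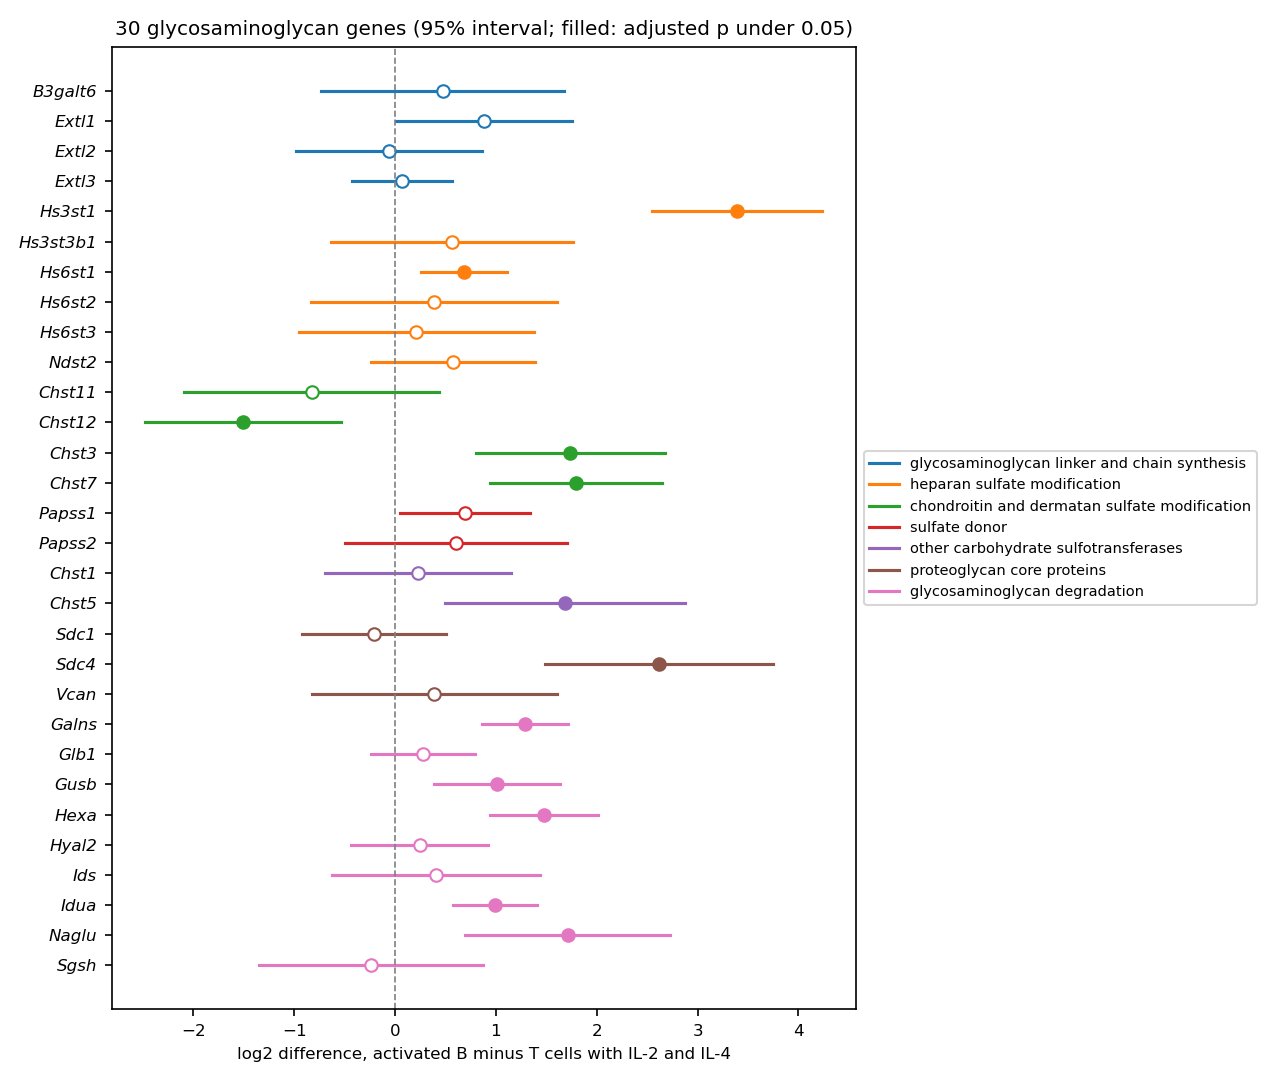
Log2 difference between activated B cells and T cells cultured with IL-2 and IL-4 for the 30 measured genes of the pathway lists, with 95% intervals, filled where the limma adjusted p was under 0.05. Hs3st1 lies farthest right (3.39), and Chst12 is the only filled point left of 0 (-1.51).

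The 6 genes did not share 1 pattern over the 10 group means of log2(signal + 16). Pearson r over the 10 groups was 0.85 for Hs6st1 with Papss1, 0.73 for Hs3st1 with Chst3, and -0.59 for Chst3 with Chst12, and Chst12 was negative with each of the other 5 (-0.59 to -0.43). These points share arrays and their scaling. The most alike genes on the array by this measure were B3gnt5 (0.95), Cd22 (0.95) and Fcer2a (0.93) for Hs3st1, and Itgax (0.91), St3gal6 (0.90) and Vcam1 (0.89) for Hs6st1. For Papss1 they were Il17ra (0.95), Reg1 (0.92) and Fibp (0.91), and for Chst3 Ifngr2 (0.93), Hexa (0.86) and Cd83 (0.85). For Chst12 they were Fgfr1 (0.87), S100a10 (0.83) and Prdm1 (0.81). Extl1 had no gene as close, with Ctf1 (0.74), Reg2 (0.73) and Artn (0.67) the nearest.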

How the data were processed

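Splenic T and B lymphocytes were measured on 30 arrays of a custom Affymetrix design. The deposited value is 1 linear intensity for each probe set on each array, from 1 to 69827.5, with array medians from 115 to 204. How it was summarised and scaled is not given in the sources used here. No detection calls were used, so low signals are not shown to lie above background. The number of arrays limits the precision.

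Of 752 probe sets 6 controls were left out. A gene table of GRCm38.p6 matched 449 of the 462 that carry a RefSeq accession, giving 374 genes, and each gene was represented by its brightest probe set. The probe sets of Hs3st1, Hs6st1 and Chst12 carry the suffix that marks probes shared between transcripts. Groups were read from the array titles. Values were taken as log2(signal + 16), which understates changes of dim genes, and fitted with limma 3.58.1 (lmFit, eBayes) in R 4.3.3 with 1 mean per group. The T-cell culture effect is the mean of 3 cultured groups (9 arrays) minus the fresh group. On simulated data with the arrays' spread, 95.5% of 66 genes changed by 2 on the log2 scale were recovered among 746 for cultured against fresh CD4 cells, 47.8% of 67 changed by 1 and 16.4% of 67 changed by 0.5. Tests are two-sided. Scan periods join scan days less than 15 days apart (9 days, 6 periods). Figures (matplotlib 3.10.9) and sequence searches (pandas 2.3.3, numpy 2.4.6) ran in Python 3.11.15.

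Named are the 6 genes, the pathway genes past the threshold in the comparison described, and the 3 genes most alike each gene by Pearson r over 10 group means. The genes, lists and tests were chosen with earlier results of these data known. Of the pathway lists, 4 of 24 chain synthesis genes, 6 of 18 heparan sulfate modification genes, 4 of 10 chondroitin and dermatan sulfate modification genes, 2 of 8 sulfate donor genes, 2 of 13 other carbohydrate sulfotransferases, 3 of 27 core proteins and 9 of 18 degradation genes were measured. Comparisons of CD8 with CD4 cells in single cytokine conditions were added after seeing the data. Alternatives were the pseudocount (1 or 64), median centring, quantile normalization, leaving out the dimmest 40% of probe sets, the 3'/5' ratio as a covariate, blocks by title letter, scan day or scan period, fits of only the groups compared, 1 probe set per gene, and leaving out each array. Whether the title letters pair the arrays is not settled. Over 39 pairs of arrays with the same letter in different groups, the correlation of deviations from the group means had a median of 0.04. It ran from -0.13 to 0.36, with 9 pairs over 0.1. Over 366 pairs with different letters the median was -0.003 and the range -0.37 to 0.32, with 28 pairs over 0.1.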

Additional observations from a re-analysis of the deposited data

Results flagged for a closer look

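The culture effect on Extl1 differed between CD8 and CD4 cells by 2.15 on the log2 scale (limma interaction, adjusted p = 0.0299): cultured minus fresh was 1.69 in CD8 and -0.46 in CD4 cells. The call was lost without the fresh CD4 array of letter B (1.68, limma adjusted p = 0.124), which held the highest fresh CD4 signal, 178, without the fresh CD8 array of letter B (1.85, limma adjusted p = 0.150) and without the fresh CD8 array of letter C (2.07, limma adjusted p = 0.0613). It was also lost with the scan day (limma adjusted p = 0.483) and the scan period (limma adjusted p = 0.442) as a block, without both fresh T-cell arrays of letter C (limma adjusted p = 0.0875) and with the title letter as a block. Between the subsets, CD8 minus CD4 was 1.12 in cultured and -1.03 in fresh cells.

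The culture effect on Chst12 differed between B and T cells by -2.17 (limma interaction, adjusted p = 0.0232): cultured minus fresh was -1.55 in B cells, 0.91 in CD4 cells and 0.32 in CD8 cells. The T-cell values rest on the fresh arrays of letter C: without them they were 0.15 in CD4 and -0.29 in CD8 cells, and the difference between B and T cells was -1.48 (limma adjusted p = 0.0368). The call was lost with the scan day as a block (-2.00, limma adjusted p = 0.0866). It was also lost without the fresh B array of letter E (-2.19, limma adjusted p = 0.0556) or the activated B array of letter K (-1.98, limma adjusted p = 0.0729), beside letter G named above.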

How the results depend on the processing

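No member's difference past the threshold changed direction under any alternative run. Over the 6 genes and all alternatives, 2990 values kept their direction and their side of the threshold, 105 lost a call, 29 gained one, and 146 that passed under neither setting changed sign. The median of all probe sets moves with centring. Signals near the low end of the range limit Hs3st1 and Chst3, which drop out with the dimmest 40% of probe sets. Low signals also limit comparisons of Extl1 and Chst12, which stay in that setting. Extl1 reached down to 17.1 in fresh CD8 cells and 14.7 in CD4 cells with IL-2 and IL-12. Chst12 reached down to 27.5 in activated B cells. The alternative with another probe set per gene was not run, since each gene has 1. The causes of the changes below were not tested.

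The number of the 6 genes past the threshold changed as follows. For cultured against fresh CD4 cells (2) it was 1 without the dimmest 40% of probe sets, with the 3'/5' covariate and with the scan period block, and 0 with the scan day block. For CD4 cells in the conditions IL-2, IL-2/IL-4 and IL-2/IL-12 (2 each) it was 1 with median centring, without the dim probe sets and with the covariate, and 0 with the scan day block. With the scan period block it was 0, 1 and 1, with only the groups compared 1, 0 and 1, and without both fresh T arrays of letter C 1 in the conditions with IL-4 and IL-12. For CD8 cells in the conditions IL-2 (2), IL-2/IL-4 (3) and IL-2/IL-12 (2), it was 1 with only the groups compared, and in the first 2 of these 1 with median centring. For cultured B cells (0) it was 2 with a pseudocount of 64 and 1 with quantile normalization, without the dim probe sets, with the covariate, with each block and without both fresh T arrays of letter C. For fresh CD8 against CD4 (0) it was 1 with the random letter block. For fresh B against T (2) it was 0 without the dim probe sets and 1 with a pseudocount of 1, median centring, the covariate, the random letter block, both scan blocks, only the groups compared, without both letter C arrays and without the 2 arrays with exchanged codes. For cultured CD8 against CD4 and CD8 against CD4 with IL-2 and IL-12 (1 each) it was 0 with both scan blocks. For activated B against T (4) it was 2 without the dim probe sets and 1 with the scan day block. For the CD8 against CD4 culture effect (1) it was 0 with both scan blocks and without both letter C arrays, and for the B against T culture effect (1) it was 0 with the covariate and the scan day block.

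The title letter as a replicate block, which could be fitted for 13 comparisons, ended the Extl1 calls for the CD8 against CD4 culture effect (2.05, limma adjusted p = 0.0824, leaving 0 genes) and for CD8 against CD4 with IL-2 and IL-12 (2.11, limma adjusted p = 0.0841, leaving 0), and gained Chst12 in cultured B cells (-1.56, limma adjusted p = 0.0270). It changed no other call of the 6 genes. As a random block its correlation was 0.08.

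Leaving out 1 array at a time gave 1 to 2 genes for CD4 with IL-2 and IL-4 and CD4 with IL-2 and IL-12, 1 to 2 for CD8 with IL-2, 1 to 2 for CD8 with IL-2 and IL-4 (3 with all arrays), 0 to 1 for cultured B cells, fresh CD8 against CD4 and the B against T culture effect, 0 to 2 for the CD8 against CD4 culture effect, and 1 to 2 for fresh B against T.

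Over all probe sets, the number called moved by over 1.5 times as follows. In cultured CD4 cells 161 became 101 with the covariate and 80 with the scan day block, in cultured B cells 73 became 23 with only the groups compared and 41 without the activated B array of letter H, and for fresh B against T 61 became 32 with either the scan day block or only the groups compared. For activated B against T 197 became 60 and for cultured CD8 against CD4 72 became 46, both with the scan day block. For the B against T culture effect 88 became 55 with the scan day block and 58 without the fresh B array of letter E. For the CD8 against CD4 culture effect 30 became 18 with median centring, 8 with the scan day block and 14 with the scan period block, without both letter C arrays or without the fresh CD8 array of letter B, and 19 without that of letter A. For fresh CD8 against CD4 12 became 7 with median centring, 19 with the random letter block, 3 with the scan day block, 0 with only the groups compared, 7 without the fresh CD4 array of letter B or C and 5 without the fresh CD8 array of letter B. For CD8 against CD4 with IL-2 and IL-12 21 became 13 with the scan day block, 11 with the scan period block and 9 to 11 without the IL-12 array of letter D or L in CD4 cells or H or L in CD8 cells. With the scan day block, CD4 in the conditions IL-2, IL-2/IL-4 and IL-2/IL-12 went from 128, 158 and 117 to 44, 31 and 59, and with only the groups compared to 62, 86 and 63. CD4 with IL-2 and IL-4 was also at 96 with the covariate and 105 with the scan period block. With only the groups compared, CD8 with IL-2 and IL-4 went from 135 to 89 and CD8 against CD4 with IL-2 from 24 to 12. CD8 against CD4 with IL-2 and IL-4 went from 29 to 14 with the scan day block. Where 6 or fewer were called, IL-4 added in CD4 cells (6) ran from 0 to 9 over all alternatives, IL-12 added in CD4 (1) from 0 to 3, IL-12 added in CD8 (2) from 0 to 4 and the CD8 against CD4 effect of IL-4 (3) from 0 to 3. The share of higher calls for the B against T culture effect was 39.8%, and 18.7% with median centring.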
